A study of Mus musculus with 10 samples.

Results

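The colony-stimulating factors and their receptors were examined as a family of 8 genes, chosen by symbol from the deposited table of estimated counts: the ligands Csf1, Csf2 and Csf3 and the receptor chains Csf1r, Csf2ra, Csf2rb, Csf2rb2 and Csf3r. All 8 were found among the 35958 features of the table, and all 8 passed the filter on low values, a minimum CPM (the count scaled to library size) in at least 3 tumors, which left 15767 features. The samples were 10 subcutaneous tumors of WEHI-164, a mouse fibrosarcoma line that the labels give as wild type, each grown in a female BALB/c mouse; the age of these mice is not given in the labels. RNA came from the piece removed at an incomplete surgical resection, so every tumor was untreated when sampled. A hydrogel loaded with poly(I:C), a synthetic double-stranded RNA, was then applied to the residual tumor of all the mice, and each mouse was classed by outcome as a responder (complete regression, RS, n = 5) or a non-responder (no delay in growth, NR, n = 5). There was no arm with an empty hydrogel in this table, and all tumors came from a single cell line. The 5 responders are numbered 5, 9, 10, 11 and 12 and the 5 non-responders 1, 2, 3, 6 and 7, as in the labels. The responder libraries held 16002949 to 31160790 estimated counts each and the non-responder libraries 19863863 to 28276142.

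Colony-stimulating factors are cytokines that keep myeloid cells alive and drive their growth and maturation. M-CSF, the product of Csf1, acts through the tyrosine kinase receptor Csf1r on monocytes and macrophages. GM-CSF (Csf2) binds a complex of its specific alpha chain (Csf2ra) and a beta chain (Csf2rb) that the receptors for interleukin-3 and interleukin-5 also use, whereas Csf2rb2 is a mouse paralog that serves the interleukin-3 receptor. G-CSF (Csf3) acts through Csf3r, the receptor of the neutrophil lineage. In tumors the ligands can come from cancer cells, stroma and lymphocytes, and the receptors mark infiltrating myeloid cells.

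None of the 8 genes differed between responders and non-responders after adjustment over all features (edgeR quasi-likelihood test, Benjamini-Hochberg adjusted p between 0.580 and 0.926). The adjusted threshold called 0% of the 15767 features. The smallest unadjusted p-values of the family belonged to Csf2rb, Csf3r and Csf2rb2, with means 1.33-fold, 1.53-fold and 1.40-fold as high in responders. These 3 genes, all higher in responders, had an unadjusted edgeR p under 0.05. Of all features 4.20% were higher in responders at this level and 4.0% were lower. The count of 3 depended on single tumors: it was 1 without responder 11 or without non-responder 2, and 5 without responder 12. Of the 8 genes, 7 had a higher fitted mean in responders and 1, Csf1, a lower one, while without responder 11 5 of the 8 were higher. With all tumors the median log2 fold change of the 8 was 0.33. Over all features the median was -0.0036, and 48.6% of them were higher in responders. For no member did the groups separate: values of responders and non-responders overlapped in all 8 genes, while every responder lay above every non-responder in 0.336% of all features and below in 0.590%.

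**Figure D1:**
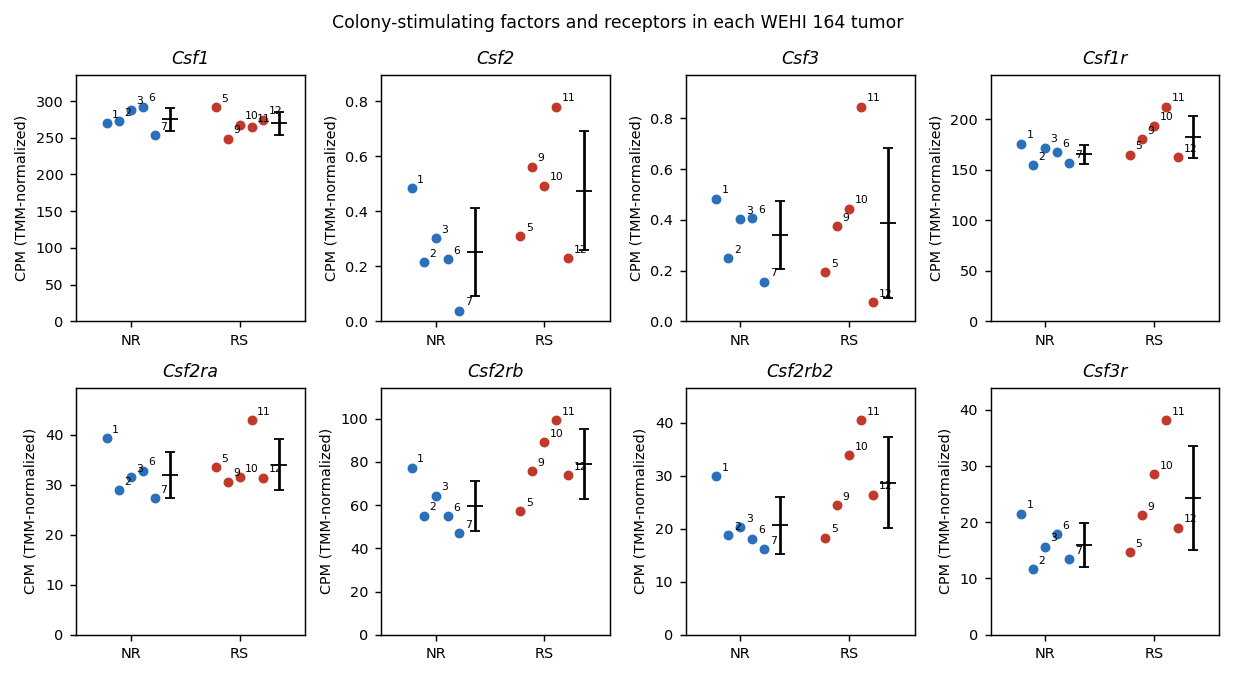
Normalized level (CPM after TMM normalization, linear axes from 0) of the 8 genes in each of the 10 tumors. Blue points are non-responders (NR) and red points responders (RS), numbers are the tumor numbers, and the black mark with bars is the mean ± SD of 5 tumors. Responder 11 is the highest point in 7 of the 8 panels, and the groups overlap in every panel.

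Csf1 (ENSMUSG00000014599, chr3:107741048-107760469, minus strand; all gene positions are on GRCm38, from GENCODE vM21) was the most abundant member. Its level was 269.8, 272.3, 288.3, 292.2 and 253.1 CPM in non-responders 1, 2, 3, 6 and 7. In responders 5, 9, 10, 11 and 12 it was 291.8, 248.7, 267.8, 264.5 and 274.7 CPM. Both groups covered nearly the same range, with a mean of 269.5 ± 15.7 CPM in responders against 275.1 ± 15.7 CPM in non-responders (± SD over 5 tumors per group). The log2 fold change of responders over non-responders was -0.03 (SE 0.05, 95% interval -0.14 to 0.09, edgeR adjusted p = 0.910), and an exact two-sided permutation test of log2(CPM + 1) gave p = 0.532; the smallest p that 5 against 5 tumors allow is 0.00794. Its coefficient of variation was 5.81% in responders and 5.71% in non-responders, the smallest of the family in both groups.

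Csf2 (ENSMUSG00000018916, chr11:54247271-54249667, minus strand) was close to the lower limit of detection. Non-responders 1, 2, 3, 6 and 7 had 11, 6, 6, 5 and 1 estimated counts. Responders 5, 9, 10, 11 and 12 had 8.44, 9, 10, 24 and 6 counts. Scaled to depth, every responder was above the non-responder median of 0.226 CPM, and responders 9, 10 and 11 were above every non-responder, while responders 5 and 12 lay below non-responder 1. The mean was 0.476 ± 0.217 CPM in responders against 0.253 ± 0.161 CPM in non-responders (± SD over 5 tumors per group). The log2 fold change was 0.93 with a wide interval (SE 0.48, 95% interval -0.11 to 1.97, edgeR adjusted p = 0.631), and the exact permutation test gave p = 0.0714. Csf2 passed the filter through 4 tumors, 3 of them responders, so its passing is tied to the group in which it was higher.

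Csf3 (ENSMUSG00000038067, chr11:98701263-98703629, plus strand) was as scarce. It had 11, 7, 8, 9 and 4 counts in non-responders 1, 2, 3, 6 and 7 and 5, 6, 9, 26 and 2 counts in responders 5, 9, 10, 11 and 12. Responder 11 alone lay above the non-responders, and responder 12 had the lowest value of all. The log2 fold change of 0.24 (SE 0.52, 95% interval -0.87 to 1.36, edgeR adjusted p = 0.926) rested on responder 11, without which it was -0.37. No difference in Csf3 was detected at these counts, and the interval still holds changes in either direction.

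Ligands of the same or closely related receptors were also read. Il34, which encodes the other ligand of Csf1r, averaged 28.0 CPM in responders against 29.8 CPM in non-responders (log2 fold change -0.09). Il3 and Il5, whose receptors use the same beta chain, did not pass the filter and had at most 4 and 7 counts in any tumor, and Il5ra had at most 11.3. Of the 9 genes listed as related ligands and receptors 6 were tested, 2 with a higher and 4 with a lower mean in responders, with a median log2 fold change of -0.01. Flt3l, the growth factor of dendritic cell progenitors, was the only 1 of the 6 with an unadjusted edgeR p under 0.05, at 17.1 ± 1.64 CPM in responders against 14.6 ± 0.951 CPM in non-responders (± SD over 5 tumors per group; log2 fold change 0.23, SE 0.08, adjusted p = 0.580).

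Csf1r (ENSMUSG00000024621, chr18:61100598-61132149, plus strand) was the most abundant receptor. It measured 176.0, 154.3, 172.0, 167.5 and 156.3 CPM in non-responders 1, 2, 3, 6 and 7. In responders 5, 9, 10, 11 and 12 it measured 165.0, 180.0, 193.5, 212.4 and 162.4 CPM. Responders 9, 10 and 11 were above every non-responder, whereas responders 5 and 12 lay within the non-responder range. Means were 182.7 ± 20.8 CPM and 165.2 ± 9.58 CPM (± SD over 5 tumors per group), a log2 fold change of 0.15 (SE 0.07, 95% interval -0.01 to 0.30, edgeR adjusted p = 0.623; exact permutation p = 0.135). Hmgxb3 overlaps the gene on the opposite strand, and 14.6% of the 31-base words in the transcripts of Csf1r also occur in those of Hmgxb3, so part of its count can depend on how reads were shared out.

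Csf2ra (ENSMUSG00000059326, chr19:61223957-61228429, minus strand), the specific chain of the GM-CSF receptor, differed little. Non-responders 1, 2, 3, 6 and 7 had 39.4, 28.9, 31.5, 32.8 and 27.4 CPM. Responders 5, 9, 10, 11 and 12 had 33.5, 30.7, 31.5, 43.0 and 31.5 CPM. Responder 11 and non-responder 1 stood above the other 8 tumors, which shared a narrow range. The log2 fold change was 0.09 (SE 0.11, 95% interval -0.15 to 0.33, edgeR adjusted p = 0.852; exact permutation p = 0.5) and was -0.0039 without responder 11.

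Csf2rb (ENSMUSG00000071713, chr15:78325752-78353847, plus strand) and Csf2rb2 (ENSMUSG00000071714, chr15:78282507-78305721, minus strand) are neighbors on chromosome 15 in opposite orientation. Because an estimated count depends on telling such paralogs apart, their coding sequences were compared. The longest coding sequences have 2688 and 2634 bases, are 95.2% identical over 2628 aligned bases and share an unbroken identical run of 242 bases. Of the 31-base words in the transcripts of Csf2rb 18.8% occur in those of Csf2rb2, and 28.6% of those of Csf2rb2 occur in Csf2rb, so most of each transcript was distinct at the word length that Kallisto uses by default. The stretch of 90 coding bases in exon 4 where the genes differ most, at 16 positions, shows the sequence that separates them. Csf2rb is at chr15:78338897-78338986 on the plus strand and Csf2rb2 at chr15:78294345-78294434 on the minus strand of GRCm38, each written 5′ to 3′ in the direction of the gene, with the differing bases in capitals:
Csf2rb: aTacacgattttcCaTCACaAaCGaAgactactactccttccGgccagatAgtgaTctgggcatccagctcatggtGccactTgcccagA
Csf2rb2: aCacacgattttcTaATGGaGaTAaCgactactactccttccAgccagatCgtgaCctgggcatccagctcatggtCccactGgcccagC

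Csf2rb measured 77.3, 55.1, 64.3, 54.8 and 47.1 CPM in non-responders 1, 2, 3, 6 and 7. In responders 5, 9, 10, 11 and 12 it measured 57.2, 75.8, 89.2, 99.4 and 73.8 CPM. All 5 responders exceeded the non-responder median of 55.1 CPM, responders 10 and 11 exceeded every non-responder, and the overlap came from responder 5 and non-responder 1. The mean was 79.1 ± 16.04 CPM in responders against 59.7 ± 11.5 CPM in non-responders (± SD over 5 tumors per group). The log2 fold change was 0.41 (SE 0.15, 95% interval 0.09 to 0.73) with an unadjusted edgeR p of 0.0164 and an adjusted p of 0.580, and the exact permutation test gave p = 0.0714. It was the only member whose unadjusted edgeR p stayed under 0.05 whichever of the 10 tumors was left out (p from 0.00200 to 0.0489).

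Csf2rb2 measured 30.0, 18.8, 20.3, 18.1 and 16.1 CPM in non-responders 1, 2, 3, 6 and 7. In responders 5, 9, 10, 11 and 12 it measured 18.3, 24.5, 33.9, 40.5 and 26.4 CPM. The tumors fell in nearly the same order as for Csf2rb, with responders 10 and 11 highest and responder 5 among the non-responders. Means were 28.7 ± 8.64 CPM and 20.7 ± 5.42 CPM (± SD over 5 tumors per group), a log2 fold change of 0.48 (SE 0.21, 95% interval 0.04 to 0.92, unadjusted edgeR p = 0.0360, adjusted p = 0.591; exact permutation p = 0.111). With DESeq2 the unadjusted p was 0.0629.

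The ratio of the paralogs differed between the groups by less than the spread between tumors. The ratio of Csf2rb to Csf2rb2, each as CPM + 1, ran from 2.42 to 3.06 over the 10 tumors; ratios between genes were not scaled to length, so only their difference between the groups is read. The log2 ratio was 1.46 ± 0.14 in responders and 1.498 ± 0.10 in non-responders (± SD over 5 tumors per group; difference -0.04, exact permutation p = 0.603). With both summed to 1 feature the log2 fold change was 0.43 (SE 0.16, edgeR adjusted p = 0.586). The beta chain was also set against its alpha chain: the log2 ratio of Csf2rb to Csf2ra was 1.18 ± 0.26 in responders and 0.87 ± 0.12 in non-responders (± SD over 5 tumors per group), a difference of 0.31 that did not pass the threshold (exact permutation p = 0.0556), in a comparison chosen after the members had been seen. Responders 9, 10, 11 and 12 all had a ratio above every non-responder, and responder 5 lay among the non-responders. When single tumors were dropped the difference ran from 0.24 to 0.42, and the only exact p under 0.05 came from leaving out responder 5, the 1 responder that overlapped the non-responders; the exact p was 0.0556 to 0.119 in the other 9 cases.

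Csf3r (ENSMUSG00000028859, chr4:126024550-126044440, plus strand) had the largest fold change of the 5 receptor chains. It measured 21.5, 11.6, 15.7, 17.8 and 13.4 CPM in non-responders 1, 2, 3, 6 and 7. In responders 5, 9, 10, 11 and 12 it measured 14.7, 21.2, 28.6, 38.2 and 19.0 CPM. Responders 10 and 11 were above every non-responder, responders 9 and 12 above all but non-responder 1, and responder 5 among the non-responders. The mean was 24.3 ± 9.21 CPM in responders against 16 ± 3.88 CPM in non-responders (± SD over 5 tumors per group), a log2 fold change of 0.61 (SE 0.23, 95% interval 0.11 to 1.12, unadjusted edgeR p = 0.0214, adjusted p = 0.586; exact permutation p = 0.0952). Without responder 11 the log2 fold change was 0.39. In GENCODE 19.9% of the 31-base words of its transcripts also occur in those of another gene, AC105061.2, so its count carries some uncertainty of assignment.

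**Figure D2:**
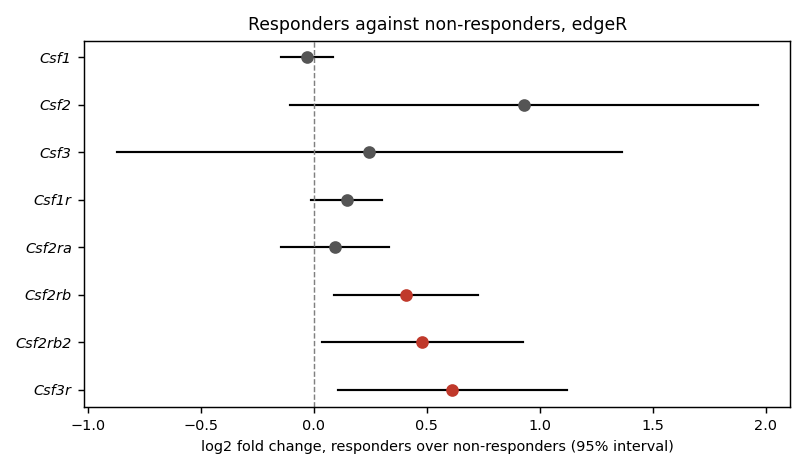
Log2 fold change of responders over non-responders for the 8 genes (points) with 95% intervals (lines), from edgeR on 5 against 5 tumors. Red points have an unadjusted p under 0.05 (Csf2rb, Csf2rb2 and Csf3r), and no gene passed after adjustment. The intervals of the scarce ligands Csf2 and Csf3 are the widest, and that of Csf1 is centered near 0.

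Leaving out each tumor in turn showed how much single tumors carried. Csf2rb stayed between 0.31 and 0.52 in log2 fold change, Csf2rb2 between 0.32 and 0.65, and Csf3r between 0.39 and 0.76. The unadjusted edgeR p was under 0.05 in all 10 cases for Csf2rb, in 8 for Csf3r and in 4 for Csf2rb2. Without responder 11, and likewise without non-responder 2, Csf2rb was the only 1 of the 8 genes at this level, and without responder 11 5 of the 8 had a higher mean in responders. Without responder 5 there were 4 such genes, Csf1r joining the other 3, without non-responder 1 there were 4, with Csf2 added, and without responder 12 there were 5, with both added. Without non-responder 3, 6 or 7 or responder 10 there were 2, Csf2rb and Csf3r, and without responder 9 the same 3 as with all tumors. The background moved as well: over all features 1294 of 15767 were at this level in either direction with all tumors, 2139 of 15695 without responder 5, 1534 of 15683 without non-responder 1, 1022 of 15695 without responder 12 and 839 of 15706 without responder 11. It was 1144 of 15711 without non-responder 2, 1422 of 15692 without non-responder 3, 1035 of 15709 without non-responder 6, 932 of 15692 without non-responder 7, 866 of 15663 without responder 9 and 1074 of 15680 without responder 10. Responder 11, which had the highest value in all members but Csf1, was also the most deeply sequenced library. Non-responder 7 had the lowest value in 4 members, Csf2, Csf2ra, Csf2rb and Csf2rb2.

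**Figure D3:**
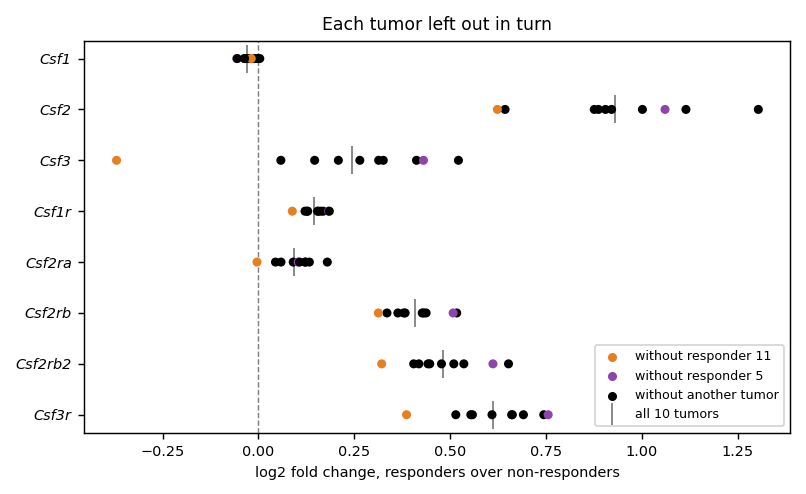
Log2 fold change of responders over non-responders for each gene when 1 tumor is left out (points) and with all 10 tumors (grey bar). Orange points leave out responder 11 and purple points responder 5. Removing responder 11 moves Csf3 to -0.37 and gives the lowest value for all 5 receptor chains, while Csf1 stays near 0 throughout.

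Levels of different genes were ranked per length, as CPM per kilobase of the longest coding transcript. In responders the order was Csf1 (64.5), Csf1r (38.9), Csf2ra (18.4), Csf2rb (16.1), Csf3r (6.99), Csf2rb2 (6.06), Csf2 (0.595) and Csf3 (0.274 CPM per kilobase). Non-responders had the same order by mean, from 65.9 for Csf1 to 0.241 for Csf3. Csf1 was above Csf1r, Csf1r above Csf2ra, and Csf2rb2 above Csf2 in all 10 tumors with no overlap of their ranges. Over the union of all exons in place of the longest transcript the order was the same, but the levels of Csf1, Csf1r, Csf2ra, Csf2rb and Csf3r were lower, for Csf2ra 11.9 in responders and 11.1 in non-responders and for Csf2rb 10.9 and 8.21 CPM per kilobase. On the first scale the ranges of Csf2ra and Csf2rb, of Csf2rb and Csf3r, of Csf3r and Csf2rb2, and of Csf2 and Csf3 overlapped. The log2 ratio of Csf1 to Csf1r, each as CPM + 1 and not scaled to length, was 0.56 ± 0.21 in responders and 0.73 ± 0.08 in non-responders (± SD over 5 tumors per group; difference -0.17, exact permutation p = 0.143).

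Across the 10 tumors the receptor chains varied together and Csf1 apart from them. The 10 pairs of receptor chains had Pearson correlations of log2(CPM + 1) from 0.672 (Csf2ra with Csf2rb) to 0.978 (Csf2rb with Csf2rb2). Csf1 had Pearson correlations from -0.279 to 0.139 with the 5 chains. Rank correlations (rho) of Csf2ra with the other chains were lower, from 0.455 (Csf2rb2) to 0.588 (Csf1r). Those of the remaining pairs of chains ran from 0.745 to 0.976, and those of Csf1 with the chains from -0.382 to 0.333. These are descriptions over 10 libraries that differ in depth and in the cell type markers of the pieces. Among 13066 features with a mean of at least 1 CPM, Csf3r was closest in pattern to Sema4a (r = 0.982) and Fcgr3 (r = 0.981). Csf1r was closest to Csf3r (r = 0.955), Atp6v0e2 (r = 0.954) and Blcap (r = 0.946), and Csf2ra to Fermt3 (r = 0.967), Myadm (r = 0.952) and Arl8b (r = 0.918). Csf2rb was closest to Csf2rb2, then Bcl3 (r = 0.971) and Ninj1 (r = 0.970), and Csf2rb2 to Csf2rb, then Ptpn7 (r = 0.971) and Cish (r = 0.969). Csf1 was closest to Pax2 (r = 0.957), Dennd1a (r = 0.920) and Aph1a (r = 0.886).

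Promoter sequence was available for a member on each side of that division. Windows of 250 bases upstream of the transcription start come from RefSeq on GRCm38.p6, and 5 of the 8 genes had one. Not all of these windows are shown, and whether the others share a start with GENCODE is not reported here. Those of Csf1 and Csf2rb2 had a start that GENCODE shares, and these are printed. Both strands were searched for GAGGAA (the core bound by the myeloid factor PU.1; in 23.3% of 32851 RefSeq windows of this length), TTGCNNAA (C/EBP type; 9.56%), TTCNNNGAA (STAT type; 7.02%) and, for the NF-kB type, GGG and TTCC with 3 bases between them (4.65%). Capitals mark matches; a match is a run of letters and not a shown binding site. The window of Csf1, chr3:107760470-107760719 on the minus strand, had 1 match, of NF-kB type, at 154 to 145 bases before the start. That of Csf2rb2, chr15:78305722-78305971 on the minus strand, had a match to the PU.1 core at 167 to 162 bases and a STAT-type match at 15 to 7 bases before the start:
Csf1: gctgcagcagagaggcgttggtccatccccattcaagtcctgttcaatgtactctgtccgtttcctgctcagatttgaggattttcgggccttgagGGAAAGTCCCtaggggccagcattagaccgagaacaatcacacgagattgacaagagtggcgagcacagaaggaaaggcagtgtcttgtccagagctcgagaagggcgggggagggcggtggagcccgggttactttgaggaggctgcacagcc
Csf2rb2: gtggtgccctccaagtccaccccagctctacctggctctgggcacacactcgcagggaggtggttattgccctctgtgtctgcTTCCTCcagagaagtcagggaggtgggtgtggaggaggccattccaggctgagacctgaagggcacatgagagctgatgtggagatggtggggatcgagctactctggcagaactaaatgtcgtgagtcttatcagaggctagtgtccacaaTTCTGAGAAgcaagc

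Whether the members varied with the cells known to carry them was examined in 7 relations between a gene and a marker score, the mean log2(CPM + 1) of a list of markers, over the 10 tumors. In bulk tumor RNA, fewer cells of a type and less RNA per cell cannot be told apart. Each receptor chain examined was set against a single score, so no relation is shown to be particular to that cell type. Csf1r followed the macrophage score of 12 markers (r = 0.873, permutation p = 0.000900, adjusted over the 7 relations 0.00315; rho = 0.879, permutation p = 0.00140, adjusted 0.00490). When non-responder 2 and responder 11, which lay farthest from the median score, were left out, r was 0.739 (permutation p = 0.0344), and on deviations from the group means it was 0.845. Csf2rb followed the same score (r = 0.840, permutation p = 0.00204, adjusted 0.00476; rho = 0.891, permutation p = 0.00106, adjusted 0.00490), with r = 0.808 (permutation p = 0.0140) without those tumors and 0.816 on deviations. For Csf2ra r was 0.818 (permutation p = 0.00355, adjusted 0.00621) but rho was 0.612 (permutation p = 0.0673, adjusted 0.0673), and without the same tumors r was 0.687 (permutation p = 0.0623), and the relation passed the threshold only with them; on deviations r was 0.814.

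Csf3r followed the neutrophil score of 6 markers (r = 0.863, permutation p = 0.000750, adjusted 0.00315; rho = 0.855, permutation p = 0.00290, adjusted 0.00677). Without responders 10 and 11 r was 0.682 (permutation p = 0.0572), and the relation passed the threshold only with those tumors; on deviations from the group means it was 0.811. Of 12 neutrophil markers only these 6 passed the filter, and the defining gene Ly6g had at most 2 counts in any tumor. Csf3r also had r = 0.955 with Csf1r across the tumors and was set against no other marker score. Summed over the 12 markers, the level was 103, 42.7, 38.0, 35.3 and 38.0 CPM in non-responders 1, 2, 3, 6 and 7 and 43.8, 49.0, 92.8, 106 and 57.3 CPM in responders 5, 9, 10, 11 and 12. The most abundant of them was Mmp9, which is not specific to neutrophils, at 50.9 CPM on average. All 6 tested markers had a higher mean in responders, 0 of them with an unadjusted edgeR p under 0.05, and their part in the difference of Csf3r was not tested.

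Csf2, which lymphocytes can make, went with the T cell score of 9 markers (r = 0.745, permutation p = 0.0142, adjusted 0.0166; rho = 0.758, permutation p = 0.0150, adjusted 0.0211). Without non-responder 2 and responder 5 r was 0.922 (permutation p = 0.00181), and on deviations it was 0.687. With the NK cell score of 6 markers r was 0.763 (permutation p = 0.0103, adjusted 0.0144; rho = 0.770, permutation p = 0.0122, adjusted 0.0211), but without non-responder 2 and responder 11 it was 0.631 (permutation p = 0.0938), and the relation passed the threshold only with those tumors; on deviations r was 0.644. With at most 24 counts of Csf2 in a tumor, both relations carry large counting error. For Csf1 and the fibroblast and fibrosarcoma score of 10 markers r did not pass the threshold (r = 0.586, permutation p = 0.0733, adjusted 0.0733; rho = 0.661, permutation p = 0.0435, adjusted 0.0507; r = 0.481 without non-responders 2 and 6, permutation p = 0.231; r = 0.598 on deviations).

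**Figure D4:**
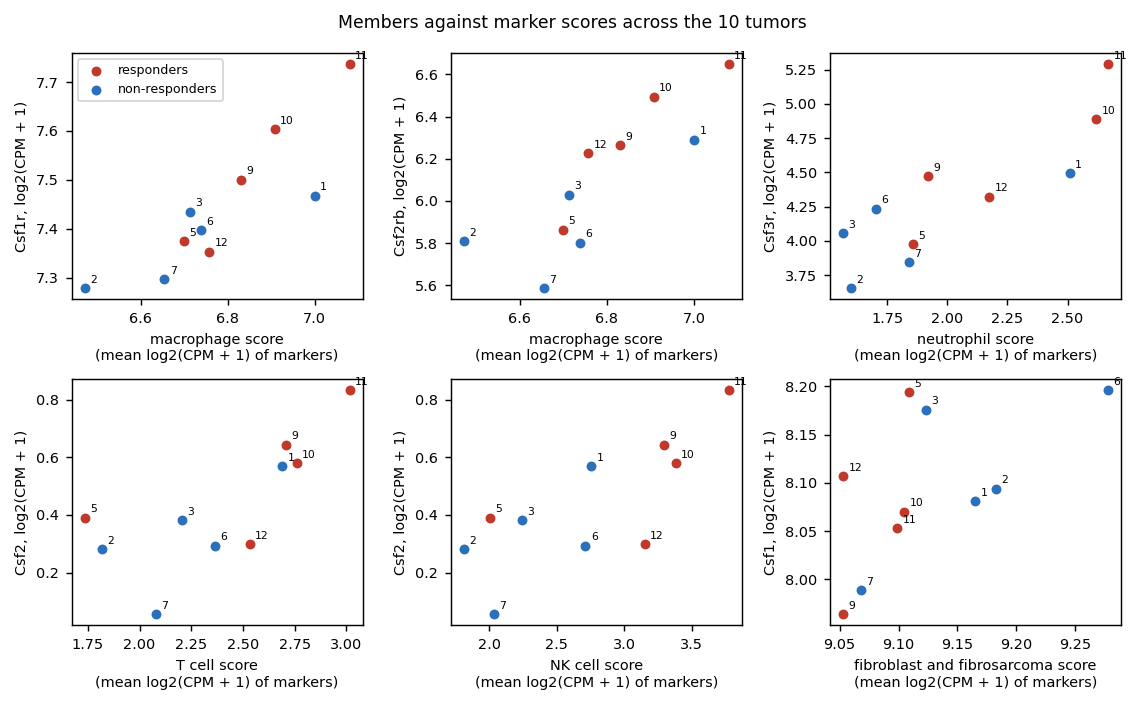
Level of a member (log2(CPM + 1)) against a marker score (mean log2(CPM + 1) over its tested markers) in each of the 10 tumors, red for responders and blue for non-responders, with tumor numbers. Csf1r and Csf2rb rise along the macrophage score, on which responder 11 is highest and non-responder 1 next. Csf3r rises along the neutrophil score, with responders 10 and 11 at the upper right. Csf1 spreads widely against the fibroblast and fibrosarcoma score.

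Markers of the other cell types in the pieces were set beside the receptors. Of 12 macrophage markers 10 had a higher mean in responders, 1 of them with an unadjusted edgeR p under 0.05, and their sum, led by Ctsd, was 2481, 1879, 2081, 1955 and 1895 CPM in non-responders 1, 2, 3, 6 and 7 and 1965, 2425, 2405, 2627 and 2098 CPM in responders 5, 9, 10, 11 and 12. All 6 tested of 8 NK cell markers were higher in responders, 5 with an unadjusted p under 0.05; their sum, led by Gzma, was 62.1, 22.6, 32.0, 60.7 and 26.4 CPM in non-responders and 25.7, 104, 119, 198 and 112 CPM in responders, and Klra8 had no counts in any tumor. All 6 tested of 8 mast cell and eosinophil markers were also higher, 5 with an unadjusted p under 0.05, with sums, led by Tpsb2, of 282, 154, 209, 169 and 155 CPM in non-responders and 213, 212, 258, 359 and 296 CPM in responders. Mast cells and eosinophils carry the shared beta chain as well, so the cell source of Csf2rb could not be told from these pieces. Responder 5 had the lowest sum of the responders for the macrophage and NK cell markers, and responders 9 and 5 the lowest for the mast cell and eosinophil markers. The part of these cells in the differences of the receptors was not tested.

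Fibroblast and fibrosarcoma markers matched the labelled cell type: all 10 passed the filter, led by Vim at 4764 CPM on average, with 2 higher and 8 lower means in responders, 2 of the lower ones with an unadjusted edgeR p under 0.05. Monocyte markers had 5 higher and 2 lower of 7 tested, with 1 in each direction at an unadjusted edgeR p under 0.05, dendritic cell markers 6 higher and 3 lower of 9 and T cell markers 9 higher of 9, each with 1 higher at that level, B cell markers 3 higher and 1 lower of 4, and osteoclast markers 2 higher and 2 lower of 4, with Calcr at 0 in every tumor. Endothelial markers had 1 higher and 7 lower of 8, 2 of the lower ones with an unadjusted edgeR p under 0.05, keratinocyte and epithelial markers 2 higher and 2 lower of 4, and all 6 skeletal muscle and all 6 adipocyte markers had lower means in responders, 2 and 1 of them with an unadjusted edgeR p under 0.05.

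Genes downstream of the receptors were read from lists chosen with earlier results of these data known. No gene of these lists passed after adjustment. Of 25 receptor signaling genes 15 had a higher and 10 a lower mean in responders, with a median log2 fold change of 0.02. Jak2, the kinase bound to the shared beta chain, was at 116 and 105 CPM in responders and non-responders (log2 fold change 0.15), and Stat5a and Stat5b, its targets, had log2 fold changes of 0.09 and 0.07. The adaptor Tyrobp (0.27, SE 0.10, edgeR adjusted p = 0.580) was higher and the phospholipase Plcg2 (-0.15, SE 0.07, adjusted p = 0.607) lower at an unadjusted p under 0.05.

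Among 13 feedback inhibitors of these receptors 10 had a higher and 3 a lower mean in responders, with a median log2 fold change of 0.12. Cish, a target of STAT5 that dampens cytokine signaling, was at 10.3, 6.11, 6.09, 6.09 and 5.13 CPM in non-responders 1, 2, 3, 6 and 7. In responders 5, 9, 10, 11 and 12 it was at 5.56, 9.76, 10.3, 15.3 and 9.47 CPM. Responder 5 was low and non-responder 1 high, as for the beta chains, and the log2 fold change was 0.58 (SE 0.24, edgeR adjusted p = 0.591, with an unadjusted p under 0.05). Socs2, of the same family, had a log2 fold change of 0.38 (SE 0.16, edgeR adjusted p = 0.591) and likewise an unadjusted p under 0.05.

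Of 14 transcription factors that respond to colony-stimulating factors 9 had a higher and 5 a lower mean in responders, with a median log2 fold change of 0.04. Irf8, which directs monocyte and dendritic cell fate, was the only 1 with an unadjusted edgeR p under 0.05, at 96.5 ± 16.5 CPM in responders against 70.8 ± 13.7 CPM in non-responders (± SD over 5 tumors per group; log2 fold change 0.45, SE 0.14, edgeR adjusted p = 0.580). Spi1, which encodes PU.1, and Cebpa had log2 fold changes of 0.07 and 0.01.

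The 18 genes listed as responding to colony-stimulating factors had 16 higher and 2 lower means in responders and a median log2 fold change of 0.23. Bcl2a1b (0.47, SE 0.14), Ccl24 (0.78, SE 0.27) and Il1rn (0.57, SE 0.26) had an unadjusted edgeR p under 0.05, with adjusted p-values from 0.580 to 0.604. Bcl2a1b encodes a survival protein and has close paralogs between which reads can be split, Ccl24 an eosinophil-attracting chemokine and Il1rn the interleukin-1 receptor antagonist. Itgax, an integrin of dendritic cells and macrophages, was 1 of the 2 genes with a lower mean in responders (log2 fold change -0.20, SE 0.13, edgeR adjusted p = 0.706).

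**Figure D5:**
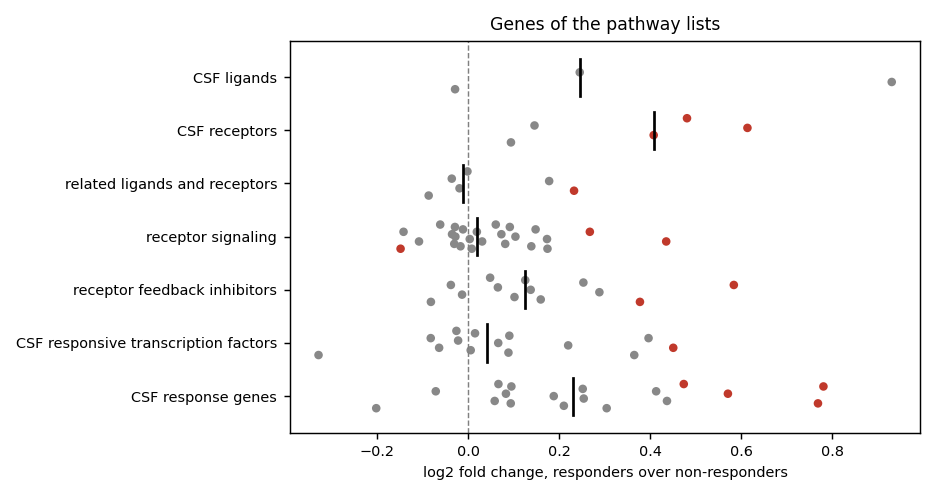
Log2 fold change of responders over non-responders for each tested gene of 7 lists (points; vertical spread within a list has no meaning), with the list median as a black bar. Red points have an unadjusted edgeR p under 0.05. The medians run from -0.01 for related ligands and receptors to 0.41 for the 5 receptor chains, and no gene passed after adjustment.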

How the data were processed

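The labels describe polyA RNA from frozen tumor pieces kept in RNAlater. Per the methods of the study, the authors checked reads with FastQC, estimated transcript abundance with Kallisto and summed it to genes with tximport on mm10 (GRCm38); the annotation release is not given in the sources used here. The deposited values are the estimated counts per gene that this gave, not normalized for depth or length. Of 36009 rows, 9580 have no gene name and 44 names are repeated; rows of one name were summed and counts rounded. Features that exceeded a CPM of 0.366 in 3 or more tumors were tested with edgeR 4.0.16 in R 4.3.3 (quasi-likelihood, TMM, Benjamini-Hochberg over 15767 features, threshold 0.05). The biological coefficient of variation was 10.4%. Each standard error is the fitted log2 change divided by the root of edgeR's F statistic, and the 95% intervals use t with 12.8 degrees of freedom. Exact permutation tests ran over 252 assignments, and correlations over 10 tumors used 100000 permutations. Alternatives were DESeq2 1.42.0, limma 3.58.1, other normalizations, filters and pseudocounts, and leaving out each tumor. Simulated data were used to check the edgeR steps. Each tumor is from 1 mouse, tumor numbers are unique, and the labels name no batch, so none was examined. Precision is limited by 5 tumors per group and, for Csf2 and Csf3, by counting error.

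The members, gene lists and tests were chosen with earlier results of these data known. All 8 members were named; of each pathway list, the genes with an unadjusted p under 0.05 (at most 4); of each marker list, the most abundant gene and genes at 0 throughout; and for members with at least 50 counts on average, the 3 features closest in pattern. Some genes that this rule picks are not reported here. Other genes (Il34, Il3, Il5, Il5ra, Jak2, Stat5a, Stat5b, Spi1, Cebpa, Itgax, Ly6g, Epx, Prg2 and Siglecf) were named after their values were seen. Gene positions and transcript lengths are from GENCODE vM21 and promoters from RefSeq.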

Additional observations from a re-analysis of the deposited data

Results flagged for a closer look

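Among 66 sets of 5 values, 1 for each group and each member, list score or ratio of members, 3 had a tumor standing apart from the other 4 by more than Dixon's 95% critical value of 0.71, and chance alone gives about 3.3 in that number. In responders, Csf2ra in responder 11 was 5.46 on the log2(CPM + 1) scale, against 4.98 to 5.11 in the other 4 responders (gap over range 0.735). In non-responders, the score of the genes that respond to colony-stimulating factors was 4.63 in non-responder 1, against 4.11 to 4.25 in the others (gap over range 0.725). The neutrophil marker score was 2.51 in the same non-responder 1, against 1.57 to 1.84 in the others (gap over range 0.711).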

How the results depend on the processing

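Under the alternatives run, 305 of the recomputed values kept their direction and side of the threshold or stayed near the value with all tumors, 7 reversed, 3 no longer passed the threshold, 9 newly passed it and 8 others moved beyond the spread or by over 1.5 times. The count of features past the adjusted threshold was 0 with edgeR and limma-voom (1294 and 1331 at an unadjusted p under 0.05), 1 with DESeq2 (1245 at an unadjusted p under 0.05), and 0 to 9 with each tumor left out, 9 being without responder 5; none was a member. The count at an unadjusted p under 0.05 was 839 without responder 11 and 2139 without responder 5. With limma-voom the log2 fold change of Csf3 was -0.048 in place of 0.24. With each tumor left out the log2 fold change ran from -0.057 to 0.0034 for Csf1 (highest without responder 9), 0.09 to 0.18 for Csf1r, 0.62 to 1.30 for Csf2, -0.0039 to 0.18 for Csf2ra (lowest without responder 11), 0.31 to 0.52 for Csf2rb, 0.32 to 0.65 for Csf2rb2, -0.37 to 0.52 for Csf3 (lowest without responder 11) and 0.39 to 0.76 for Csf3r. The permutation differences of log2(CPM + 1) ran from 0.16 to 0.30 for Csf2, 0.31 to 0.50 for Csf2rb, 0.30 to 0.58 for Csf2rb2, -0.078 to 0.12 for Csf3 (also -0.021 without non-responder 7) and 0.36 to 0.69 for Csf3r. The exact p fell under 0.05 for Csf2 without responder 12 (p = 0.0476), for Csf2rb without non-responder 1 or responder 5 (p = 0.0317), for Csf2rb2 without either of these (p = 0.0397) and for Csf3r without responder 5 (p = 0.0397). The log2 ratio of Csf2rb to Csf2rb2 differed by -0.083 to 0.0028 (highest without responder 11), that of Csf2rb to Csf2ra by 0.24 to 0.42 (exact p = 0.00794 without responder 5, otherwise 0.0556 to 0.119), and that of Csf3r to Csf1r, a comparison added after the data were seen, by 0.27 to 0.51 (0.39 with all tumors, exact permutation p = 0.0952; p = 0.0317 without responder 5 and 0.0476 without non-responder 1). Leaving out the pair of tumors with the most distant scores gave an r of 0.687 for Csf2ra with macrophage markers, 0.682 for Csf3r with neutrophil markers and 0.631 for Csf2 with NK cell markers. Over the union of exons the mean level was 51.6 for Csf1, 30.1 for Csf1r, 11.5 for Csf2ra and 9.54 CPM per kilobase for Csf2rb, with the order unchanged. The cause of these changes was not tested. No paired analysis was possible because the tumor numbers are unique across the groups. The low counts of Csf2 and Csf3 limit any statement on them.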
